A study of Mus musculus with 12 samples.

Results

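The hypoxia-inducible factors (HIFs) and the enzymes that set their level by oxygen were described in CT-26 tumors, and 10 genes were taken: the HIF alpha subunits Hif1a, Epas1 and Hif3a, the beta subunits Arnt and Arnt2, the prolyl hydroxylases Egln1, Egln2 and Egln3, the ubiquitin ligase subunit Vhl and the asparaginyl hydroxylase Hif1an. They were taken by name, with earlier results of these data known, and found among the 30630 genes of the deposited files by Ensembl identifier. CT-26 cells, a mouse colon carcinoma line, were injected with Matrigel under the skin of the right flank of male BALB/c mice that were 4 to 6 weeks old when bought. Mice were randomised according to tumor volume to the control group, which did not swim, or to the swimming group, which swam for 3 weeks in sessions driven by stirring of the water, with 10 mice in each group. RNA of 6 randomly selected tumors per group was sequenced, each tumor from a different mouse. The comparison of the groups asks whether the genes of the oxygen-sensing pathway were expressed at another level in tumors of mice that swam.

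A HIF is a transcription factor made of an alpha subunit and a beta subunit. In the presence of oxygen, the prolyl hydroxylases hydroxylate the alpha subunit, the von Hippel-Lindau protein binds the hydroxylated form, and the alpha subunit is ubiquitinated and degraded, while Hif1an, also called FIH, hydroxylates an asparagine that the coactivators need free. When oxygen is low, as in the interior of solid tumors, the alpha subunit is stable and genes for glycolysis, glucose uptake, pH control and vessel growth are induced, among them Egln1 and Egln3 themselves. Most of this control acts on the protein, and the RNA measured here is only the template for it.

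Values are FPKM, read numbers that the authors had divided by gene length and by the depth of the tumor, so that levels can be set side by side between genes. The number of reads is not known, and control 2 had the lowest relative depth, 0.694 of that of control 1, with 0.871 to 1 for the rest. Of 9 markers of intestinal epithelium, Krt20 lay between 99.8 and 194 FPKM, Krt8 between 1.86 and 129 FPKM, Krt18 between 5.89 and 14.8 FPKM and Lgals4 between 1.58 and 2.83 FPKM. Krt19 reached 0.757, Cdh1 0.430, Cdx2 0.341, Epcam 0.177 and Vil1 0.0908 FPKM at most, and the last 3 of these did not pass the filter on low values. The tumors also held RNA of host tissue, and the summed level of 8 skeletal muscle markers ranged from 1.96 to 208 FPKM in control tumors and from 1.298 to 299 FPKM in swimming tumors.

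The promoters of these genes were searched for ACGTG and GCGTG, the core of the hypoxia response element to which HIFs bind, on both strands. Windows from 250 bases before to 50 bases after the start were taken from RefSeq (GRCm38.p6), which gave 10 windows for 9 of the genes, all but Epas1, with a pair of windows at Egln2. Of these, 7 held either core, compared with 43.8% of all 32851 promoter windows of the same length. Windows without it were those of Vhl, Arnt2 and Hif1an. The ACGTG core overlaps the E-box CACGTG once in the window of Hif1a and once in 1 window of Egln2, and CACGTG was present in 7.15% of all windows. The upstream stretches of Egln1 and Egln3, the hydroxylases known as HIF-induced, and of Vhl, which gave the smallest p of the 10 genes in the comparison of the groups, are printed for comparison, 5′ to 3′ on the strand of the gene, with the cores in capitals. They run from chr8:124949325-124949504 (minus strand, 180 bases) for Egln1, chr12:54203875-54204124 (minus strand, 250 bases) for Egln3 and chr6:113623744-113623958 (plus strand, 215 bases) for Vhl.
Egln1: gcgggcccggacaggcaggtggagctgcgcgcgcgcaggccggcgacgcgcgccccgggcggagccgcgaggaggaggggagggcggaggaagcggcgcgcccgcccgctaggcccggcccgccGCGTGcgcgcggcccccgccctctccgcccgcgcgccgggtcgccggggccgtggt
Egln3: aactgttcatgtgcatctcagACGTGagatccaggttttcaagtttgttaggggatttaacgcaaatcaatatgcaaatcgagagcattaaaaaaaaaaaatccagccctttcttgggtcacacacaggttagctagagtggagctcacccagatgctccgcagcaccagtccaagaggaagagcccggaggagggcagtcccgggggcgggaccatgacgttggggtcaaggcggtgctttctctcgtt
Vhl: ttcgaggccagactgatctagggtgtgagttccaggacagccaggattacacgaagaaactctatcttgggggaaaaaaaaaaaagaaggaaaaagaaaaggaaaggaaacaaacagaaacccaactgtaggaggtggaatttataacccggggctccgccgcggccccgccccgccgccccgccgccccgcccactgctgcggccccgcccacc
The stretch of Egln1 holds GCGTG, that of Egln3 holds ACGTG and that of Vhl holds neither. Matches were also counted over the whole windows of 300 bases, with CACGTG counted on each strand. The window of Egln1 held 1 match to ACGTG and 1 to GCGTG, and that of Egln3 held 1 to ACGTG. In 1 window of Egln2, 3 matches to ACGTG and 3 to GCGTG were found. The window of Hif1a held 3 to ACGTG and that of Hif3a held 2 to GCGTG. Of all windows, 19.6% held ACGTG and 32.4% held GCGTG. The ACGTG of the Egln1 window lies outside the bases printed. These are matches of letters, and binding was not measured.

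Of the 10 genes, 9 passed the filter of 0.1 FPKM in at least 6 tumors and were compared between the groups on log2(FPKM + 1) with limma, and Hif3a did not pass it. The RNA of 7 genes was on average higher in the swimming group and that of 2 was lower, while 51.7% of all genes tested were higher. With single tumors left out, the number of these genes that were higher ranged from 5 to 8. With Benjamini-Hochberg adjustment over the 19018 genes tested by limma, 0 of the 9 had an adjusted p below 0.05. The same held for 0% of all genes, and their smallest adjusted p was 0.204. In simulated data, a log2 change of 0.25 given to 200 genes passed this limit in 0% of them. The largest change of the 9 was 0.20, so the missing calls do not show that changes of this size were absent. At an unadjusted p below 0.05, limma gave 1 of the 9, Vhl, which was higher in the swimming group, where 5.56% of all genes tested passed the same limit, 3.11% higher and 2.46% lower, and an exact permutation test passed 969 genes. The groups overlapped for all 10 genes, and 0.147% of all genes tested had groups that did not overlap. The median log2 fold change was 0.04 over the 9 genes and 0.0039 over all genes tested.

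**Figure D1:**
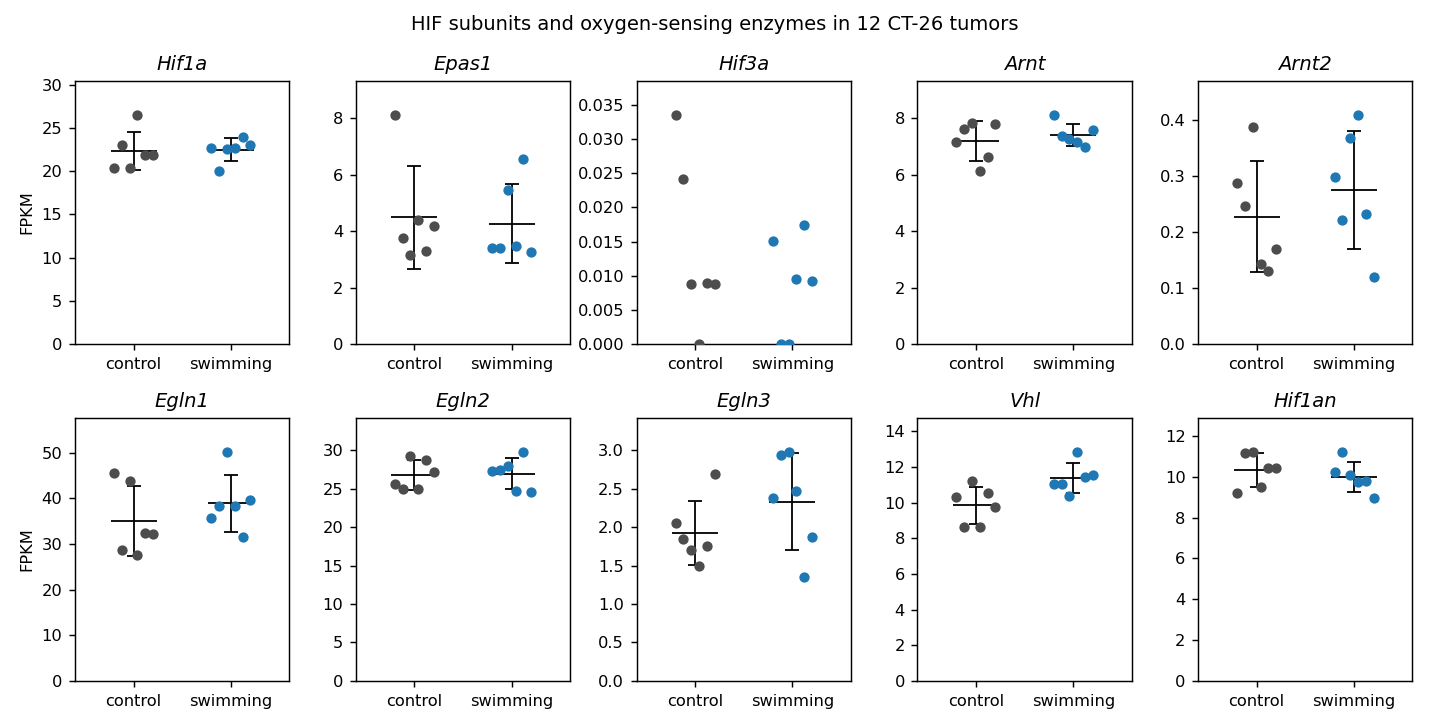
FPKM of the 10 genes, one panel per gene with its own linear axis, in 6 control and 6 swimming tumors (points), with the mean and SD of each group (bars, not drawn for Hif3a, which was listed at 0 in 3 tumors). The groups overlap in every panel, and for Vhl all 6 swimming tumors lie above the control median of 10.03 FPKM.

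Hif1a, the oxygen-regulated subunit of HIF-1, was the most strongly expressed alpha subunit. Its gene (ENSMUSG00000021109) lies on chromosome 12 from 73901375 to 73947530 on the plus strand of GRCm38 and has 5 annotated transcripts. Hif1a ranged in the control group from 20.4 to 26.5 FPKM with a median of 21.9, and in the swimming group from 20.0 to 24.0 FPKM with a median of 22.7. The swimming tumors lay within the control range except swimming 2, which was the lowest of the 12. The means were 22.3 ± 2.25 and 22.5 ± 1.31 FPKM (SD, n = 6 each), with a log2 fold change of 0.01 (SE 0.06, 95% interval -0.13 to 0.15) and an adjusted p of 0.986 by limma. The interval of the fold change reached from 0.916 to 1.11, and changes of the RNA outside it were not detected between these tumors. Across the 12 tumors, Hif1a had a coefficient of variation of 7.84%. Exons of Hif1a share 330 bases with the antisense gene Gm15283 and 148 bases with Gm49321 on the same strand. Whether strand was used in counting is not given in the sources used here, but these genes reached at most 0.268 and 0.730 FPKM.

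Epas1, which encodes HIF-2 alpha and is known for its expression in vessels, varied much more among tumors. The gene (ENSMUSG00000024140) lies on the plus strand of chromosome 17 from 86753700 to 86833410. Epas1 was 8.10 FPKM in control 1 and between 3.15 and 4.40 FPKM in the other control tumors, and it was 6.56 FPKM in swimming 5, 5.44 FPKM in swimming 3 and between 3.28 and 3.47 FPKM in the other swimming tumors. A single control tumor and a pair of swimming tumors thus stood above a narrow range, and the groups overlapped. The medians were 3.98 FPKM for control and 3.44 FPKM for swimming tumors. On the log2 scale the groups differed by -0.04 (SE 0.20, 95% interval -0.48 to 0.39; limma, adjusted p 0.986), and it turned to 0.11 when control 1 was left out. The coefficient of variation was 35.7%.

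Hif3a, whose products include inhibitors of the other alpha subunits, was close to the lower end of the values. It was listed at 0 in control 4, swimming 2 and swimming 3 and reached 0.0335 FPKM in control 1 and 0.0241 FPKM in control 2. All other tumors lay between 0.0088 and 0.0174 FPKM, which is far below the filter, so no fold change is given. Of the summed FPKM of the alpha subunits, Hif1a made up 83.4% ± 5.92 in control tumors and 84.3% ± 3.795 in swimming tumors (SD, n = 6 each), and its share ranged from 71.5% in the tumor with the most Epas1, control 1, to 87.5%.

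Among the beta subunits, Arnt carried nearly all of the RNA. Arnt, the common partner of the alpha subunits (ENSMUSG00000015522, chromosome 3 from 95434388 to 95497240, plus strand), ranged from 6.12 to 7.84 FPKM (median 7.39) in control tumors and from 6.98 to 8.10 FPKM (median 7.31) in swimming tumors. The swimming values lay inside the control range apart from 1 tumor, swimming 1. Arnt had a log2 fold change of 0.04 (SE 0.06, 95% interval -0.10 to 0.18; limma, adjusted p 0.964). Arnt2, a paralog known mainly from neural tissue (ENSMUSG00000015709, chromosome 7 from 84246278 to 84410176, minus strand), ranged from 0.131 to 0.388 FPKM in control and from 0.120 to 0.409 FPKM in swimming tumors, and both the lowest and the highest tumor belonged to the swimming group. The log2 fold change of Arnt2 was 0.05 (SE 0.07; limma, adjusted p 0.946), with 0.19 and 0.27 at pseudocounts of 0.1 and 0.01, and its share of the beta subunit FPKM was 3.02% in control and 3.59% in swimming tumors. The antisense gene Gm30873 shares 214 exonic bases with Arnt2 and ranged from 0 to 0.726 FPKM, and reads over those of the 7689 exonic bases of Arnt2 cannot be told apart without strand.

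The prolyl hydroxylases were led by Egln1, the main oxygen sensor of most cells (ENSMUSG00000031987, chromosome 8 from 124908587 to 124949324, minus strand). Egln1 was the most strongly expressed of the 10 genes in all 12 tumors. In the control group it was 45.6 FPKM in control 1, 43.7 FPKM in control 3 and between 27.7 and 32.3 FPKM in the other tumors. In the swimming group it was 50.1 FPKM in swimming 3, 31.5 FPKM in swimming 5 and between 35.7 and 39.6 FPKM in the other tumors. The control tumors thus fell to either side of most swimming tumors, and the medians were 32.2 and 38.3 FPKM. The log2 fold change was 0.16 (SE 0.14, 95% interval -0.13 to 0.45; limma, p 0.256, adjusted p 0.925). It was 0.09 without swimming 3 and 0.24 without control 1.

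Egln2, a hydroxylase that is not known as a HIF-induced gene (ENSMUSG00000058709, chromosome 7 from 27158658 to 27166802, minus strand), was the steadiest of the 10 genes, with a coefficient of variation of 6.98%. It ranged from 24.9 to 29.2 FPKM in control and from 24.6 to 29.8 FPKM in swimming tumors, nearly the same span, with a log2 fold change of 0.01 (SE 0.06, 95% interval -0.12 to 0.14; limma, adjusted p 0.990). Egln2 shares 11 exonic bases with Cyp2t4 on the opposite strand, which reached 0.287 FPKM.

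Egln3, a hydroxylase known for strong induction by hypoxia (ENSMUSG00000035105, chromosome 12 from 54178981 to 54203860, minus strand), was low. Control tumors ranged from 1.49 to 2.69 FPKM with a median of 1.80, and swimming tumors from 1.35 to 2.98 FPKM with a median of 2.43. The lowest of all tumors was swimming 5 and the highest swimming 3, so the swimming values spanned the whole control range. Egln3 had a log2 fold change of 0.18 (SE 0.13, 95% interval -0.11 to 0.47; limma, p 0.213, adjusted p 0.917). Without swimming 5, it was 0.27 with an unadjusted p of 0.0348 by limma. Of the summed FPKM of the prolyl hydroxylases, Egln1 made up 54.5% ± 4.74 in control tumors and 56.8% ± 4.17 in swimming tumors (SD, n = 6 each; exact permutation test, p = 0.374), and Egln3 made up 3.05% and 3.40%.

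Vhl encodes the subunit that recognises the hydroxylated alpha subunit in a ubiquitin ligase (ENSMUSG00000033933, chromosome 6 from 113623959 to 113631633, plus strand, with 4 transcripts). Control tumors had 10.3, 8.62, 11.2, 8.61, 10.6 and 9.73 FPKM, and swimming tumors had 11.1, 11.03, 10.4, 12.8, 11.4 and 11.5 FPKM. All 6 swimming tumors were above the control median of 10.03 FPKM, while control 3 and control 5 lay within the swimming range. The means were 9.84 ± 1.06 and 11.4 ± 0.816 FPKM (SD, n = 6 each), and the log2 fold change was 0.20 (SE 0.07, 95% interval 0.04 to 0.35), a fold of 1.14 on FPKM + 1. Its unadjusted p was 0.0162 by limma and 0.0195 by a two-sided exact permutation test, and its adjusted p of 0.889 did not pass. With any tumor left out, the log2 fold change was between 0.16 and 0.23 and the unadjusted p of limma between 0.00613 and 0.0405.

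Hif1an, the asparaginyl hydroxylase (ENSMUSG00000036450, chromosome 19 from 44562850 to 44576274, plus strand), ranged from 9.21 to 11.2 FPKM (median 10.4) in control and from 8.96 to 11.2 FPKM (median 9.96) in swimming tumors. Although 5 of 6 swimming tumors lay below the control median, the spans were almost equal. The log2 fold change was -0.04 (SE 0.06, 95% interval -0.18 to 0.10; limma, adjusted p 0.964).

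**Figure D2:**
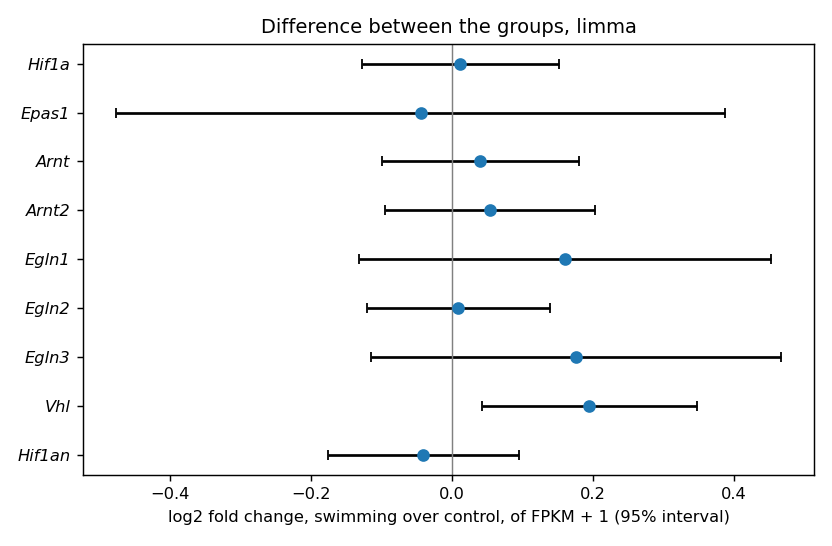
Log2 fold change, swimming over control, of log2(FPKM + 1) for the 9 genes tested (points) with 95% intervals from limma (bars), n = 6 tumors per group. Only the interval of Vhl, 0.04 to 0.35, leaves out 0, and that of Epas1 is the widest of the 9.

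The order of the levels was nearly the same in every tumor. From highest to lowest mean FPKM it was Egln1, Egln2, Hif1a, Vhl, Hif1an, Arnt, Epas1, Egln3, Arnt2 and Hif3a. Neighbours were compared within tumors on log2(FPKM + 0.1) by two-sided exact permutation tests that flip the sign of each tumor's difference. With adjustment over the 9 pairs, 8 of the 9 differed at an adjusted p below 0.05. The pairs and their direction were set by the mean FPKM of these same 12 tumors. The p-values therefore show only how regularly a step recurred across tumors, and are no separate test of the order. Hif3a, in the last pair, did not pass the filter on low values. Egln1 was above Egln2 in 12 of 12 tumors, by 0.44 on the log2 scale (exact permutation, adjusted p 0.000732). Egln2 was above Hif1a in 11 of 12, by 0.26 (exact permutation, adjusted p 0.00126). The step from Hif1a down to Vhl, 2.11-fold, occurred in 12 of 12 tumors. Vhl and Hif1an did not differ beyond their spread, with Vhl higher in 7 of 12 tumors and a difference of 0.06 (exact permutation p = 0.381). Among control tumors, Vhl was the higher only in control 1 and control 5, and among swimming tumors in all but swimming 2. This ratio was not compared between the groups. Arnt was above Epas1 in 11 of 12 tumors, by 0.79 (exact permutation, adjusted p 0.00165). The steps from Egln3 to Arnt2 and from Arnt2 to Hif3a were 2.68 and 1.61 on this scale, in 12 of 12 tumors each. The size of both depends on the pseudocount, being 1.31 and 0.30 on log2(FPKM + 1).

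Log2 ratios between members of the pathway were then compared between the groups, again on log2(FPKM + 0.1). The log2 ratio of Hif1a to Vhl was 1.18 ± 0.281 in control and 0.98 ± 0.117 in swimming tumors (SD, n = 6 each; exact permutation test, p = 0.152, adjusted over 5 ratios 0.758). The ratio of Hif1a to Epas1 differed by 0.06 (exact permutation p = 0.825), that of Egln3 to Egln1 by 0.08, that of Egln2 to Egln1 by -0.16 and that of Arnt2 to Arnt by 0.15, and 0 of the 5 had an adjusted p below 0.05.

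The levels were also followed across the 12 tumors. For each tumor, a score was computed as the mean over a gene list of the difference of log2(FPKM + 1) from the mean of all tumors, for 36 HIF-induced genes, which do not include the 10 genes themselves, and for markers of endothelial cells, fibroblasts, macrophages, skeletal muscle and adipocytes. This gave 54 relations, of which 4 had an adjusted p below 0.05 (Pearson, 100000 permutations).

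Egln1 followed the HIF-induced genes. Over the 12 tumors, Pearson's r was 0.897 (permutation p 9e-05, adjusted 0.00486) and Spearman's rho was 0.846 (permutation p 0.00087, adjusted 0.0470). Swimming 3, with the highest Egln1, had the highest score of 0.39, control 1 followed on both measures, and control 5 had the lowest score of -0.28. Without control 1 and swimming 3, the tumors farthest from the median of the score, r was 0.797, within the control group 0.864 and within the swimming group 0.938 (n = 6 each). With any tumor left out, r stayed between 0.855 and 0.945. Of 12754 other genes with a mean of at least 1 FPKM, 16 had a higher r with this score, or 0.125%, and these genes share the libraries with the score and are not independent of each other. Egln3 had an r of 0.501 with the score (permutation, adjusted p 0.465) and a rho of 0.664 (permutation p 0.0225, adjusted 0.202), and 560 genes had a higher r, or 4.39%. The difference between the 2 correlations was not tested. For Hif1a, r with the score was -0.367 (permutation, adjusted p 0.735), for Vhl it was 0.382 (adjusted 0.704), and none of the other genes passed.

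**Figure D3:**
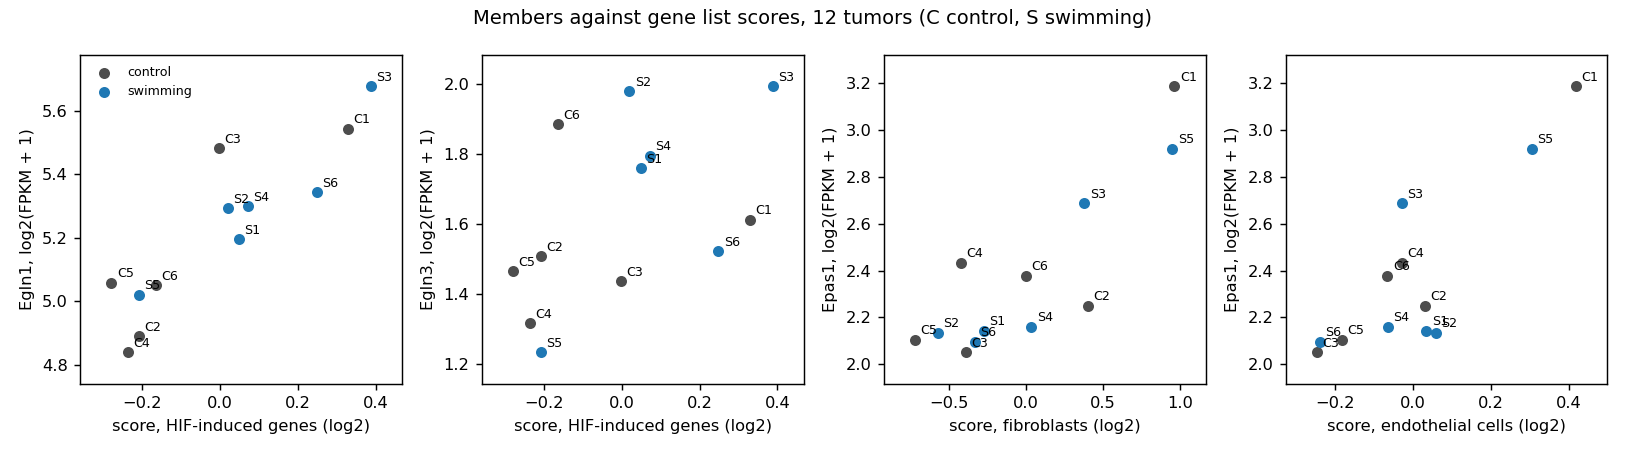
Levels on the log2(FPKM + 1) scale (vertical axes) of Egln1 and Egln3 against the score of HIF-induced genes, and of Epas1 against those of fibroblasts and endothelial cells (horizontal axes, mean log2 difference from all tumors), with a point for each of the 6 control (C) and 6 swimming (S) tumors. Egln1 lies along a line with the HIF-induced genes (r = 0.897), and control 1 and swimming 5 stand at the upper right of both Epas1 panels.

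The HIF-induced genes were also set against Egln1 one by one, a step chosen after the result for the score was seen. The score is made of these same genes, so this step gives no separate support. No share over all genes is given beside its counts. With adjustment over 72 relations, 36 each for Egln1 and Egln3, Egln1 had a positive r with 33 of the 36 genes, and 24 passed an adjusted p below 0.05 (permutation), all positive. The median r was 0.767. The highest values were those of Gpi1, glucose-6-phosphate isomerase, at 0.981 (permutation p 1.0e-05, the smallest that 100000 permutations can give, adjusted 0.00036, rho 0.965), Aldoa, an aldolase, at 0.948, Pgk1, phosphoglycerate kinase, at 0.927, Bnip3, a mitophagy receptor, at 0.911 and Mxi1, an antagonist of Myc, at 0.904. Ldha, lactate dehydrogenase, had an r of 0.898 and Car9, the carbonic anhydrase of hypoxic tumor cells, one of 0.859. Among the genes that did not pass, Vegfa, the vessel growth factor, had an r of 0.367 (permutation, adjusted p 0.373), Adm, which encodes the vasodilator adrenomedullin, 0.001 and Angptl4, a secreted inhibitor of lipoprotein lipase, -0.482. The glycolytic genes Hk2, Pfkfb3 and Pfkfb4, with r of 0.387, 0.356 and -0.243, did not pass either. For Egln3, 33 genes had a positive r as well, but the median was 0.399. The 1 gene that passed was Ak4, a mitochondrial adenylate kinase, with an r of 0.693 (permutation, adjusted p 0.0378). Ak4 lay between 0.346 and 0.931 FPKM, and r was 0.525 without swimming 2 and swimming 3. Egln3 itself lay between 1.35 and 2.98 FPKM, and the part of this low level in its lower r was not tested.

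**Figure D4:**
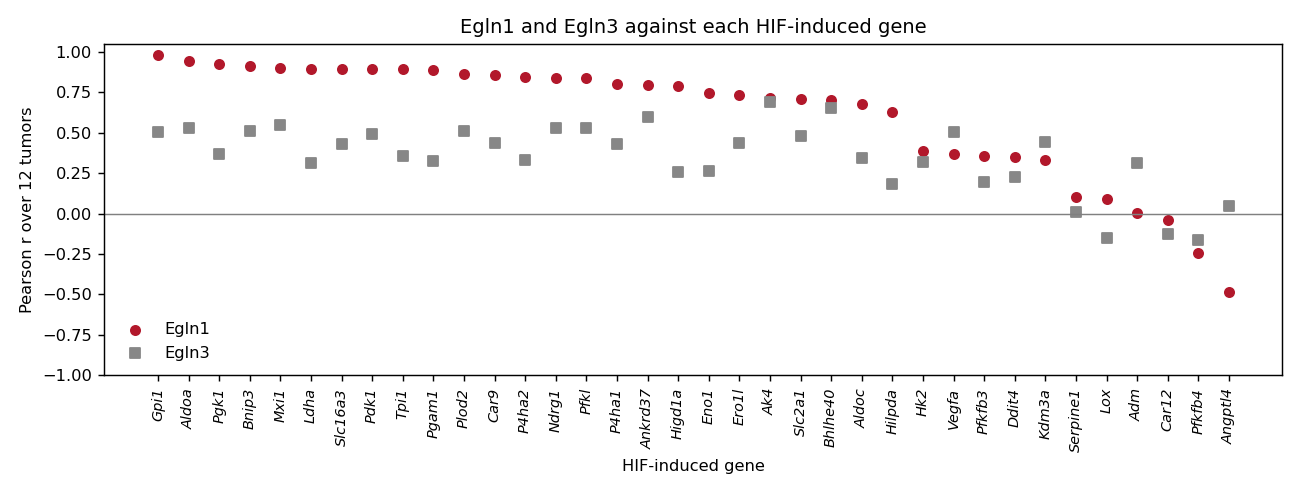
Pearson's r over 12 tumors of each of the 36 HIF-induced genes (horizontal axis, ordered by the value for Egln1) with Egln1 (circles) and with Egln3 (squares). Most points of Egln1 lie above 0.5 (25 of 36), compared with 11 of 36 for Egln3.

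Epas1 followed markers of host cells. Its r was 0.844 with the score of endothelial cells, 0.855 with that of fibroblasts and 0.853 with that of adipocytes (permutation, adjusted p 0.0274, 0.0221 and 0.0275), while the rank correlations of 0.685, 0.727 and 0.504 did not pass (permutation, adjusted p 0.185, 0.129 and 0.490). Control 1, the tumor with the most Epas1, had the highest adipocyte score of 2.66 and the highest fibroblast and endothelial scores, 0.96 and 0.42. Without control 1 and swimming 5, the tumors farthest from the median of each of these scores, r fell to 0.379, 0.586 and 0.273 (permutation p = 0.285, 0.0723 and 0.454), so these relations rest on those tumors. Leaving out control 1 alone gave r of 0.712, 0.794 and 0.695 with adjusted p of 0.163, 0.0862 and 0.181 (permutation), and leaving out swimming 5 alone gave adjusted p of 0.216, 0.110 and 0.276. Without swimming 3, the relations with fibroblasts and adipocytes also lost the call (permutation, adjusted p 0.0544 and 0.0953). The highest rho of Epas1 was with skeletal muscle, 0.797 (permutation p 0.0029, adjusted 0.0783), and did not pass. With muscle, r was 0.594, and with macrophages it was 0.608 (permutation, adjusted p 0.307 for each). The r with muscle was 0.359 without swimming 3 and swimming 5. In these bulk samples, fewer cells of a type and less RNA per cell cannot be told apart. The summed level of the 12 endothelial markers ranged from 40.8 to 73.8 FPKM in control and from 41.3 to 65.2 FPKM in swimming tumors, that of 10 fibroblast markers from 206 to 843 and from 245 to 816 FPKM, and that of adipocyte markers from 8.997 to 181 and from 11.7 to 46.4 FPKM. No difference between the groups passed for the 5 cell type scores (exact permutation p between 0.597 and 0.981).

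**Figure D5:**
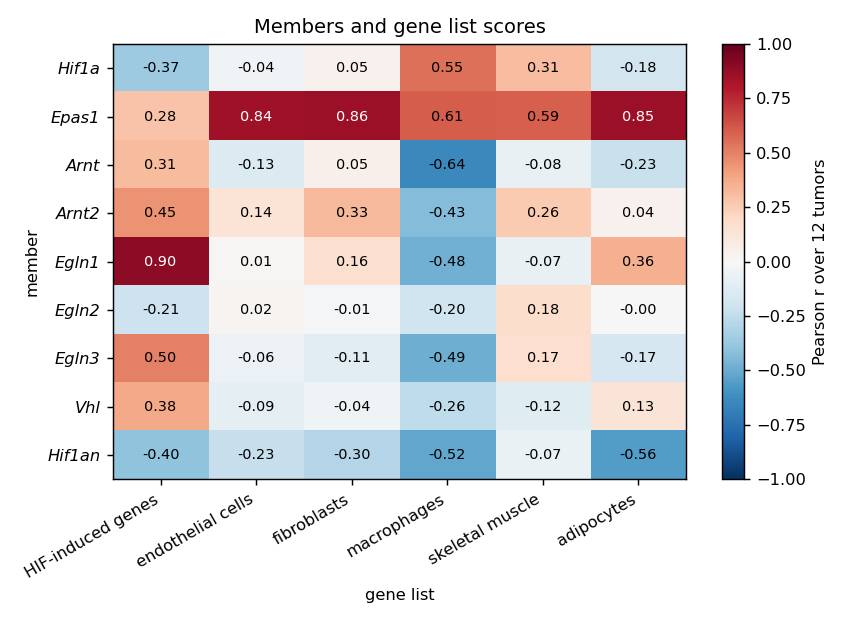
Pearson's r over 12 tumors between the 9 genes tested (rows) and 6 scores (columns), with colour from -1 to 1 and the value in each cell. The strong cells are Egln1 with HIF-induced genes (0.897) and Epas1 with endothelial cells (0.844), fibroblasts (0.855) and adipocytes (0.853).

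Between the members themselves, 36 pairs were compared across tumors, also chosen after the values were seen, and 0 had an adjusted p below 0.05 (permutation, smallest 0.630). The strongest were Hif1a with Egln1, with an r of -0.603 (permutation p 0.0361), and Arnt2 with Egln1, with an r of 0.590 (permutation p 0.0445). As a description over the 12 tumors and 12789 genes with a mean of at least 1 FPKM, the levels most like that of Hif1a were Rinl (r 0.934), Sfxn1 (0.897) and Gtf2a1 (0.869). Those most like Epas1 were Col5a3, a fibrillar collagen chain, at 0.973, Armcx3 at 0.956 and Loxl2, a lysyl oxidase that crosslinks collagen, at 0.9501. For Egln3 they were Pias4 (0.914), Stk24 (0.857) and Map4k2 (0.811). All genes listed for Hif1a were highest in the same tumor as Hif1a, control 4, and all listed for Epas1 in control 1, as Epas1 was. Those listed for Egln3 did not share its highest tumor.

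Other genes of the pathway were compared between the groups in 2 lists. Of 24 partners and regulators, which include the elongins and cullin of the Vhl ligase, the coactivators Ep300 and Crebbp and chaperones, 23 were tested, 12 higher and 11 lower in the swimming group, with a median log2 fold change of 0.03. At an unadjusted p below 0.05, which 5.56% of all genes passed, limma gave 1 of the 23, Stat3, a transcription factor of cytokine signaling. Its log2 fold change was 0.12 (limma, p 0.0491, adjusted p 0.889). The p of Stat3 by limma ranged from 0.0329 to 0.0960 over the other settings with all tumors. By the exact permutation test, p was 0.0325 for Stat3 and 0.0281 for Usp20. Usp20 also had a log2 fold change of 0.12, but a p of 0.111 by limma. The largest differences of the others were those of Nedd8, the modifier that activates cullins, with -0.22, Cited2, a competitor of HIF for coactivators, with -0.18, and Siah1a, a ligase for prolyl hydroxylases, with -0.15, none of them past an unadjusted p of 0.05.

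Of the 36 HIF-induced genes, all were tested, and 30 were higher and 6 lower in the swimming group, with a median log2 fold change of 0.19. An unadjusted p below 0.05 was reached by 7 of them, all higher, and 0 had an adjusted p below 0.05 (limma, adjusted p 0.889 for each of the 7). Over all genes tested, 51.7% were higher in the swimming group, 3.11% were higher at an unadjusted p below 0.05, and the median was 0.0039. Mean Bnip3 was 49.9 FPKM in control and 77.3 FPKM in swimming tumors (log2 fold change 0.65, unadjusted p 0.0139 by limma), Aldoc was 1.01 and 1.73 FPKM (0.43, 0.0135), and Eno1 was 242 and 287 FPKM (0.25, 0.0203). The others were Higd1a, Pfkl, Pfkfb3 and P4ha1. By the exact permutation test, p was 0.0303 for Bnip3, 0.0325 for Aldoc and 0.0346 for Eno1. It was above 0.05 for Higd1a (0.0541), Pfkl (0.0693), Pfkfb3 (0.0693) and P4ha1 (0.0909). The number of list genes passing limma at an unadjusted p below 0.05 depended on single tumors. It was 17 without control 1 or without swimming 5, 4 without control 2 and 2 without control 6. Without control 5, without swimming 3 or without swimming 6, it was 3. The score of the list was 0.19 higher in the swimming group and did not differ beyond the spread of the tumors (exact permutation p = 0.167).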

How the data were processed

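Per the study's methods, the authors removed ribosomal RNA, mapped reads of 12 tumors with Hisat2 2.0.5 and quantified genes with StringTie 1.3.3. The deposited values are FPKM per gene and tumor. The methods name hg38, while the identifiers are of mouse genes, and 30578 of the 30630 were given symbols and GRCm38 coordinates by GENCODE M21, matched by identifier. Read numbers are unknown, so no counting error is given.

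Groups were taken from the labels, which give no batch. FPKM were compared as log2(FPKM + 1) with lmFit and eBayes (trend) of limma 3.58.1 in R 4.3.3, without covariates, for the 19018 genes that reached 0.1 FPKM in 6 tumors or more. A pseudocount of 1 understates changes of weakly expressed genes. For single values, a two-sided exact permutation test ran over every split of the tumors into equal groups, with a smallest p of 0.00216. Correlations used 100000 permutations, Python 3.11.15 and scipy 1.17.1. The fit was tested on simulated data, normal draws with the mean and spread of each gene, in which 200 genes were changed. Of those changed by 0.25 on the log2 scale, 0% had an adjusted p below 0.05 and 75.5% an unadjusted one. Of those changed by 0.5, 74.5% passed the adjusted limit. StringTie's division of reads between overlapping genes is part of the values.

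The genes described and all lists were chosen with earlier results of these data known. Named are the 10 genes, list genes at an unadjusted p below 0.05 and otherwise the 3 with the largest change, the 3 genes most like Hif1a, Epas1 and Egln3, and genes overlapping a described gene. Single HIF-induced genes set against Egln1 and Egln3, Usp20, and cell type markers outside this rule, were named after their values were seen. Alternatives were other pseudocounts, filters and scalings, eBayes without trend, array weights, a replicate block and each tumor left out. The replicate numbers come from the labels of different mice. Their deviations from the group means had correlations between -0.320 and 0.0059, so the numbers were not taken to pair tumors. Transcript values were not analysed here.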

Additional observations from a re-analysis of the deposited data

Results flagged for a closer look

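In groups of 6 tumors, a tumor was singled out when its gap to the nearest other tumor, divided by the range of the group, was above 0.625, Dixon's critical value. Of 42 groups examined, 5 held such a tumor, and chance gives about 2.1. The groups share tumors and genes, and the ratio listed below contains Epas1 itself, so these numbers are no test of an excess. Epas1 was 8.10 FPKM in control 1, compared with 3.15 to 4.40 FPKM in the other control tumors. The log2 ratio of Hif1a to Epas1 in the same tumor was 1.32, compared with 2.35 to 2.69. Its adipocyte score was 2.66, compared with -0.78 to 0.00038 in the other control tumors, and the part of adipose tissue in the Epas1 value was not tested. Hif1a was 20.0 FPKM in swimming 2, compared with 22.5 to 24.0 FPKM in the other swimming tumors. The macrophage score of swimming 5 was 0.255, compared with -0.084 to -0.012 in the others.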

How the results depend on the processing

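With all 12 tumors, the other pseudocounts, filters, scalings and models left 1 gene of the 10 at an unadjusted p below 0.05, Vhl, with a log2 fold change between 0.19 and 0.21. With a replicate block, the p of Vhl was 0.0482 by limma and no call among the 10 genes changed, and 0 of 12 tumors correlated best with the tumor of the same number. With array weights, 1 gene in all had an adjusted p below 0.05, 14 instead of 8 genes of the partner and HIF-induced lists had an unadjusted p below 0.05, and the log2 fold changes of Hif1a and Egln2 turned to -0.00019 and -0.00035. With single tumors left out, the number of the 10 genes at an unadjusted p below 0.05 was 1 to 2, that of all genes at an adjusted p below 0.05 was 0 to 3, that of list genes was 2 to 18 and that of relations with scores was 1 to 5. The log2 fold change ranged from 0.087 to 0.24 for Egln1, from 0.0013 to 0.064 for Arnt, from 0.025 to 0.091 for Arnt2, from 0.12 to 0.27 for Egln3, from -0.070 to -0.011 for Hif1an, from -0.011 to 0.060 for Hif1a, from -0.16 to 0.11 for Epas1 and from -0.019 to 0.035 for Egln2, the difference in the log2 ratio from -0.14 to 0.18 for Hif1a to Epas1 and from -0.021 to 0.19 for Egln3 to Egln1, and the r of Epas1 with HIF-induced genes from -0.047 to 0.49. The cause of these shifts was not tested. Order and the other ratios kept their calls. Depth limits mainly Hif3a and Arnt2, whose levels were under 0.5 FPKM.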
